A study of Mus musculus with 20 samples.

Results

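Bile acid synthesis and transport were followed through 10 genes on the arrays: Cyp7a1, Cyp7b1, Cyp8b1, Cyp27a1, Cyp39a1, Akr1d1, Baat, Abcb11, Slc10a1 and Slco1b2. Every probe whose gene name in the scanner files was one of these was taken, which gave 13 of the 41174 probes. Cyp7a1, Cyp39a1 and Baat had 2 probes each, and the 10 genes stand among 22410 genes named on the array. Gene expression had been measured on 20 1-colour Agilent arrays from male C57BL/6 mice, 5 months old, all kept for 6 weeks on a high-fat diet (35% fat). The 4 groups were liver of staggerer mice (sg/sg), liver of wild-type mice (WT), white adipose tissue (WAT) of sg/sg mice and WAT of WT mice, with 5 arrays each. The staggerer allele is a spontaneous germline deletion that disrupts Rora, which encodes the nuclear receptor RORα, in every cell type, and no mouse here was on a standard diet. The design text counts 5 mice of each genotype, the labels do not give the fat depot, and they do not say whether equal replicate numbers in liver and WAT mark the same mouse.

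Bile acids are made from cholesterol in hepatocytes by 2 main routes. The classical route opens with Cyp7a1, the rate-limiting cholesterol 7α-hydroxylase, and Cyp8b1 adds the 12α-hydroxyl group that makes cholic acid. The alternative route opens with Cyp27a1, the mitochondrial sterol 27-hydroxylase, and its oxysterols are 7α-hydroxylated by Cyp7b1, while Cyp39a1 is the 7α-hydroxylase that prefers 24-hydroxycholesterol. Akr1d1 reduces the steroid ring, Baat joins the acid to taurine or glycine, Abcb11 exports bile salts into bile, and Slc10a1 and Slco1b2 take them up from blood. RORα binds single AGGTCA half-sites that follow an A/T-rich stretch and activates transcription there, and Cyp7b1 and Cyp8b1 have been described as RORα-dependent genes in mouse liver.

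Levels are log2 intensities relative to the 75th percentile of the same array, so that 0 is the level of the 75th percentile, and all differences are sg/sg minus WT on that log2 scale. The 75th percentile itself lay between 648 and 1090 intensity units in liver and between 1352 and 2598 in WAT, and 56.5 to 62.4% of probes were well above background on liver arrays against 71.9 to 81.1% on WAT arrays. For all 3 Rora probes the sg/sg arrays lay below the WT arrays of the same tissue, with no overlap. In WAT the differences were -2.75 to -2.72, and in liver they were -2.88 and -2.86 for the 2 probes measured in both genotypes, while the third fell under the background call on all 5 sg/sg livers. Hepatocyte markers (14 of 14) were well above background on every liver array, and adipocyte markers (10 of 10) on every WAT array. Liver arrays lay on 3 slides: slide 1 held 4 WT arrays, slide 2 held 3 sg/sg arrays and 1 WT array, and slide 3 held 2 sg/sg arrays. Genotype and slide therefore cannot be fully told apart in liver. WT WAT replicate 3 and sg/sg WAT replicate 5 stood apart, with a mean log2 level of the hepatocyte markers of -1.59 in sg/sg WAT replicate 5 and -1.22 in WT WAT replicate 3, against -4.80 to -3.45 on the other 8 WAT arrays.

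All 10 genes passed the filter on dim probes in liver, and all 13 probes were well above background on all 10 liver arrays. In sg/sg liver Cyp39a1 and Abcb11 were higher than in WT liver, by 4.63-fold and 1.42-fold, and no member was lower at an adjusted p under 0.05. Cyp39a1 was the one member of 10 whose genotypes did not overlap, as was found for 12.8% of all genes. Cyp39a1 and Abcb11 were 2 of 10 members at an adjusted p under 0.05 (limma, Benjamini-Hochberg over all 17335 genes tested), where 16.3% of all genes passed in either direction and 9.24% passed as higher. Each probe with no gene name was tested as a gene of its own, which holds for every total and share of all genes given here: 2205 of the 17335 in liver were such probes, and among the 15130 named genes 16.9% passed. The median change of the members was 0.14, against 0.05 over all genes tested. Scaled by each array's median instead of its 75th percentile, the median over all genes was -0.06, 675 of 2314 passing genes were higher instead of 1601 of 2825, and Cyp39a1 alone of the members passed.

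**Figure D1:**
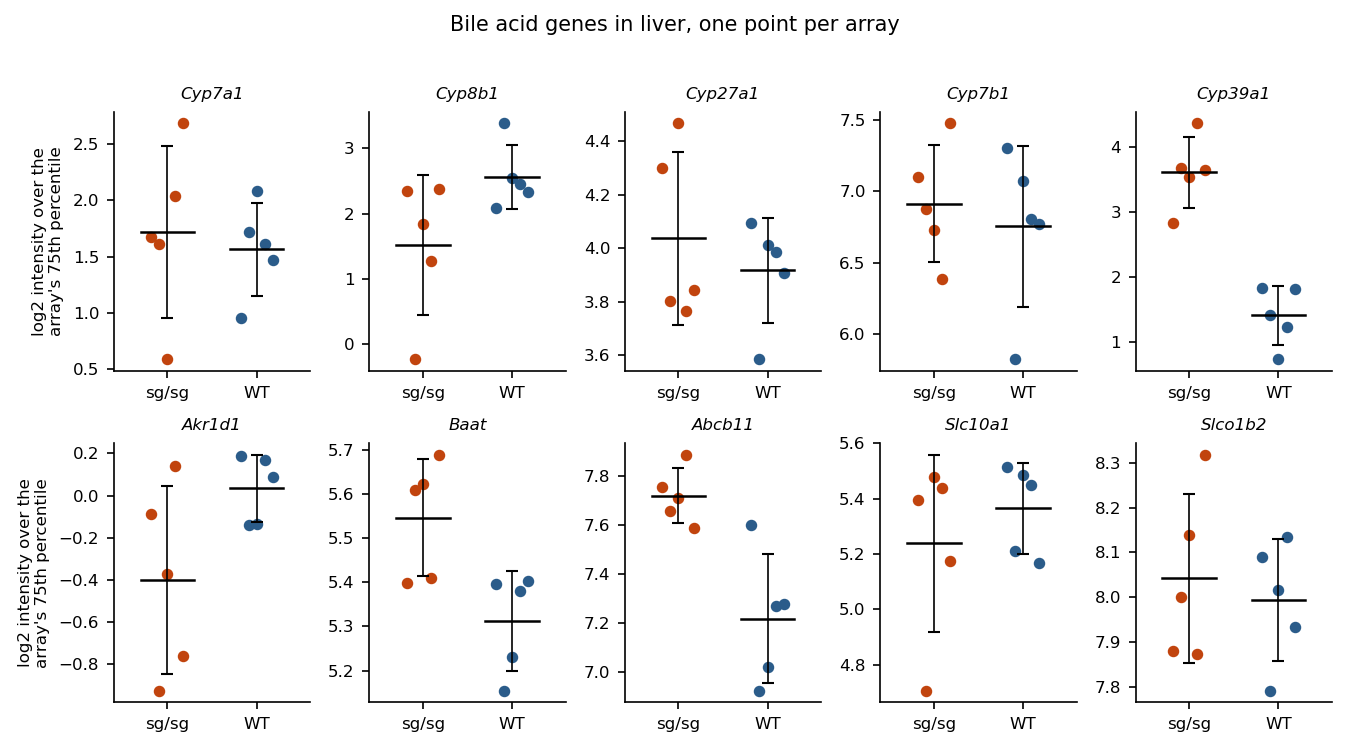
Log2 intensity over the array's 75th percentile (vertical axis, own scale per panel) of the brightest probe of each of the 10 genes on the liver arrays, sg/sg left and WT right. Points are single arrays, horizontal lines the group means and whiskers 1 SD (n = 5); Cyp39a1 is the gene whose groups do not overlap.

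Cyp39a1, the oxysterol 7α-hydroxylase named above, gave the largest difference among the members. It was read by 2 probes of 60 bases on the plus strand of chromosome 17 (build mm7 in the file headers; no annotation of that build was used). Their first 30 bases are shown in lower case because the finding rests on both, and they share no overlap on the genome.
Cyp39a1, probe A_52_P557265, chr17:41871184-41871243: gctgcagacatgcgtagtgctcagaaatgt
Cyp39a1, probe A_51_P515446, chr17:41870816-41870875: acctaaagacatcctactggctcatggatt

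The brighter Cyp39a1 probe, A_52_P557265, had levels of 2.83, 3.68, 3.54, 4.37 and 3.66 in sg/sg liver (replicates 1 to 5) and 1.83, 1.41, 0.73, 1.23 and 1.82 in WT liver. Every sg/sg liver lay above every WT liver, and the lowest sg/sg array was replicate 1. The means were 3.62 ± 0.55 in sg/sg liver and 1.40 ± 0.46 in WT liver (SD, n = 5 each), a difference of 2.21 (SE 0.28, 95% interval 1.58 to 2.84, limma, adjusted p = 0.00394). The second Cyp39a1 probe, A_51_P515446, read 2.25, 3.02, 2.82, 3.78 and 2.79 in sg/sg liver and 1.34, 0.86, 0.21, 0.60 and 1.11 in WT liver. It ordered the sg/sg arrays much as the first did, with replicate 4 highest and replicate 1 lowest. Its difference was 2.11 (SE 0.28, 4.31-fold, limma over all probes, adjusted p = 0.00444). Over all probes 8.1% passed as higher, and among the 13 member probes the 3 that passed were both Cyp39a1 probes and that of Abcb11.

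On slide 2, the slide that held both genotypes, Cyp39a1 read 2.83, 3.68 and 3.54 on the 3 sg/sg arrays against 1.82 on the WT array. The difference within that slide was 1.53 (SE 0.38, limma, unadjusted p = 0.0128, adjusted p = 0.571). With slide as a fixed block the difference rests on slide 2 alone, so that it is the same 1.53 by design (limma, adjusted p = 0.493). In that fit 2 of 17335 genes passed and 1451 had an unadjusted p under 0.05. Within slide 2, with a single WT array, 0 of 17335 genes passed and 1356 had an unadjusted p under 0.05 (limma). With slide as a random block the difference was 2.17 and its adjusted p 0.00748. Left out one at a time, the arrays gave 2.02 to 2.41, and Cyp39a1 passed in all 10 such fits.

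**Figure D2:**
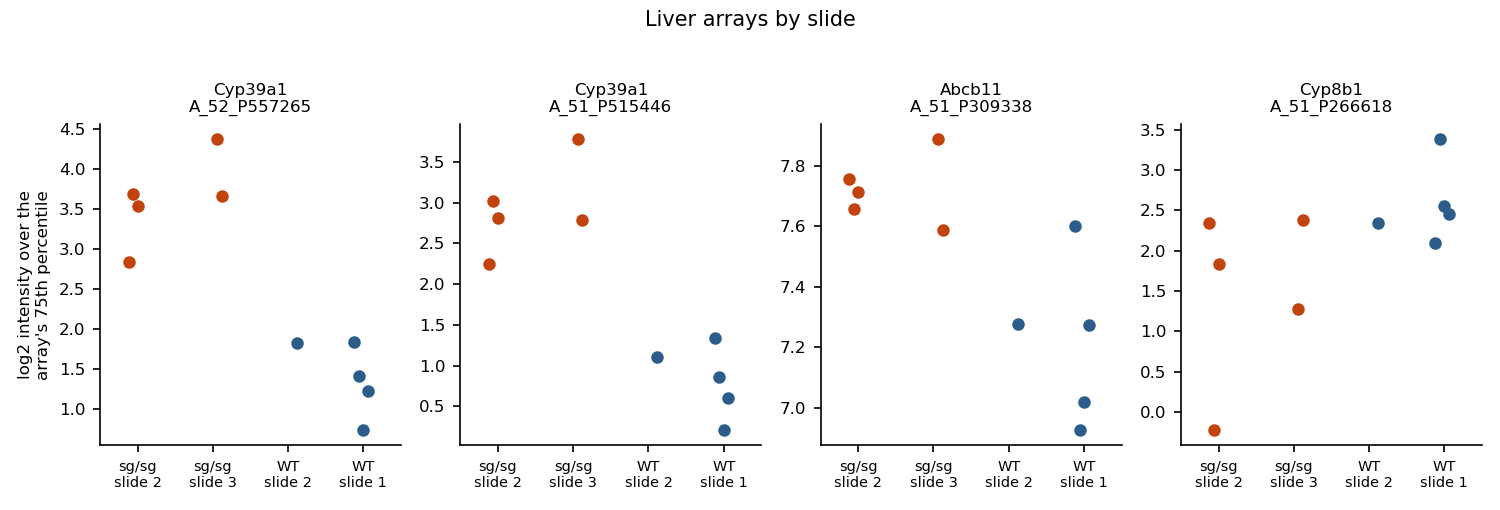
Log2 intensity over the array's 75th percentile (vertical axis, own scale per panel) on each liver array, for both Cyp39a1 probes, Abcb11 and Cyp8b1, split by genotype and slide (horizontal axis). On slide 2 the 3 sg/sg arrays lie above the WT array for both Cyp39a1 probes and for Abcb11.

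Abcb11, the bile salt export pump of the canalicular membrane and the rate-limiting step of bile salt secretion, was read by 1 probe on the minus strand of chromosome 2 (mm7). The start of that probe is shown, with the 250 bases before the gene's annotated start (RefSeq, GRCm38.p6, minus strand), because it is the member that both passed the test and has a promoter in the table used. Capitals mark the match found to TAGGTCA, which holds AGGTCA within it and lies on the strand opposite to the gene.
Abcb11, probe A_51_P309338, chr2:69168882-69168941: ccaccatgtcacctgatgtcccttactcct
Abcb11, promoter, chr2:69342617-69342866: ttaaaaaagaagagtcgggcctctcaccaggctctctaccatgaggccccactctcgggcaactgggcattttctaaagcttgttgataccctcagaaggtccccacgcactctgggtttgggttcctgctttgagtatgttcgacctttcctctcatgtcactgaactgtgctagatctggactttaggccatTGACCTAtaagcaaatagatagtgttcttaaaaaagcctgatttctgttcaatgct
The match covers bases 50 to 56 before the start. Searched on both strands, TAGGTCA was in 2.23% and AGGTCA in 14% of all 32851 promoter windows of 250 bases, and a match is a description of the letters only.

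Abcb11 levels were 7.76, 7.66, 7.71, 7.89 and 7.59 in sg/sg liver and 7.60, 6.93, 7.02, 7.27 and 7.28 in WT liver. The groups overlapped at their edges, since WT replicate 1 lay above sg/sg replicate 5 and below the other 4 sg/sg arrays. The means were 7.72 ± 0.11 in sg/sg liver and 7.22 ± 0.26 in WT liver (SD, n = 5 each), a difference of 0.50 (SE 0.13, 95% interval 0.22 to 0.78, limma, adjusted p = 0.0266). The call was close to the threshold: without WT replicate 2, 3 or 4 or sg/sg replicate 3 or 4 the adjusted p was 0.0506 to 0.0612. Within slide 2, where no gene passed, the difference was 0.43. Of the hepatocyte markers, 5 of 14 were higher, none was lower and 9 did not pass, beside 16.3% of all genes that passed. The median change of the 14 was 0.36, and their summed level was 4780 to 5330 times the 75th percentile in sg/sg liver against 3410 to 4590 in WT liver. Macrophage markers were higher in 5 of 11 (median 0.54, summed level 142 to 190 in sg/sg liver against 83.9 to 154 in WT liver), and endothelial markers in 2 of 8 (median 0.16, 21.3 to 24.1 against 16.3 to 21.9). Of 6 adipocyte markers tested in liver, 2 were lower and none higher, with a median of -0.57 and a summed level of 160 to 330 in sg/sg liver against 263 to 368 in WT liver. Those 2 were Cfd (-6.32) and Cidec (-3.42), a secreted serine protease and a lipid droplet protein, named after their values were seen. The part of these shifts in the results for Abcb11 and Cyp39a1 was not tested, and in bulk RNA more cells of a type and more RNA per cell cannot be told apart.

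Cyp8b1, which sets the share of cholic acid, was read by 1 probe on the minus strand of chromosome 9 (mm7), whose start is shown because Cyp8b1 had the widest spread between sg/sg livers.
Cyp8b1, probe A_51_P266618, chr9:121617140-121617199: aaacctggaaaaagacggcataagctgttg
Its levels were 2.34, -0.23, 1.84, 1.27 and 2.38 in sg/sg liver and 2.09, 3.39, 2.55, 2.46 and 2.34 in WT liver. The sg/sg arrays ranged over 2.61 log2 units, with replicate 2 far below the other 4, and 2 of them lay within the WT range. The means were 1.52 ± 1.08 in sg/sg liver and 2.56 ± 0.49 in WT liver (SD, n = 5 each). The difference of -1.04 (SE 0.47, 95% interval -2.08 to -0.01) did not pass the test (limma, adjusted p = 0.144). Without sg/sg replicate 2 it was -0.61 (adjusted p = 0.193).

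Cyp7a1, the first enzyme of the classical route, did not pass with either of its probes. The brighter probe, A_52_P84027, read 1.68, 1.61, 0.59, 2.04 and 2.68 in sg/sg liver and 0.95, 1.72, 2.08, 1.61 and 1.47 in WT liver. The sg/sg arrays spread on both sides of the WT arrays, and the difference was 0.15 (95% interval -0.61 to 0.91, limma, adjusted p = 0.786), an interval from 0.656 to 1.88 times the WT level. The second Cyp7a1 probe, A_51_P290981, has coordinates that span 607 bases of the genome for its 60 bases, as a probe across a splice junction would. It differed by -0.03 (95% interval -0.54 to 0.48).

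Of the alternative route, Cyp27a1 and Cyp7b1 did not pass. Cyp27a1 read 4.30, 3.80, 4.47, 3.77 and 3.85 in sg/sg liver and 4.09, 3.59, 4.01, 3.99 and 3.91 in WT liver, a difference of 0.12 (95% interval -0.23 to 0.47, limma, adjusted p = 0.63). Cyp7b1 read 7.10, 6.88, 6.73, 6.39 and 7.48 in sg/sg liver and 7.30, 5.83, 7.07, 6.81 and 6.77 in WT liver. Both genotypes covered much the same range, and the Cyp7b1 difference was 0.16 (95% interval -0.46 to 0.77, adjusted p = 0.725). Its interval runs from 0.729 to 1.71 times the WT level.

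The enzymes of the later steps did not pass. Akr1d1 was at -0.09, -0.92, -0.37, 0.14 and -0.76 in sg/sg liver and at 0.19, -0.14, -0.13, 0.17 and 0.09 in WT liver, so that 3 sg/sg arrays lay below every WT array. Its difference of -0.43 (SE 0.19, 95% interval -0.86 to -0.01) did not pass (limma, adjusted p = 0.144). Baat, by its brighter probe A_51_P245123, read 5.40, 5.61, 5.62, 5.41 and 5.69 in sg/sg liver and 5.40, 5.15, 5.23, 5.38 and 5.40 in WT liver. Its difference was 0.23 (SE 0.09, limma, adjusted p = 0.0948), and the second Baat probe differed by 0.16 (limma over all probes, adjusted p = 0.347). The coordinates given for the brighter probe span 12 bases of the genome for its 60 bases, and the reason was not examined. The unadjusted p was under 0.05 for Akr1d1 (0.0477), Baat (0.0242) and Cyp8b1 (0.0476) as well as for both genes that passed, 5 of 10 members, and for 33.6% of all genes.

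Neither uptake carrier passed the test. Slc10a1, the sodium-dependent taurocholate carrier, had means of 5.24 ± 0.32 in sg/sg liver and 5.36 ± 0.16 in WT liver (SD, n = 5 each), with sg/sg replicate 2 lowest at 4.71. The difference was -0.13 (95% interval -0.46 to 0.21, limma, adjusted p = 0.589). Slco1b2, the organic anion carrier of the hepatocyte's blood side, had means of 8.04 ± 0.19 in sg/sg liver and 7.99 ± 0.14 in WT liver, and the difference was 0.05 (95% interval -0.19 to 0.29, adjusted p = 0.779). Of the members, Slco1b2 had the narrowest interval after Baat, from 0.878 to 1.22 times the WT level.

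**Figure D3:**
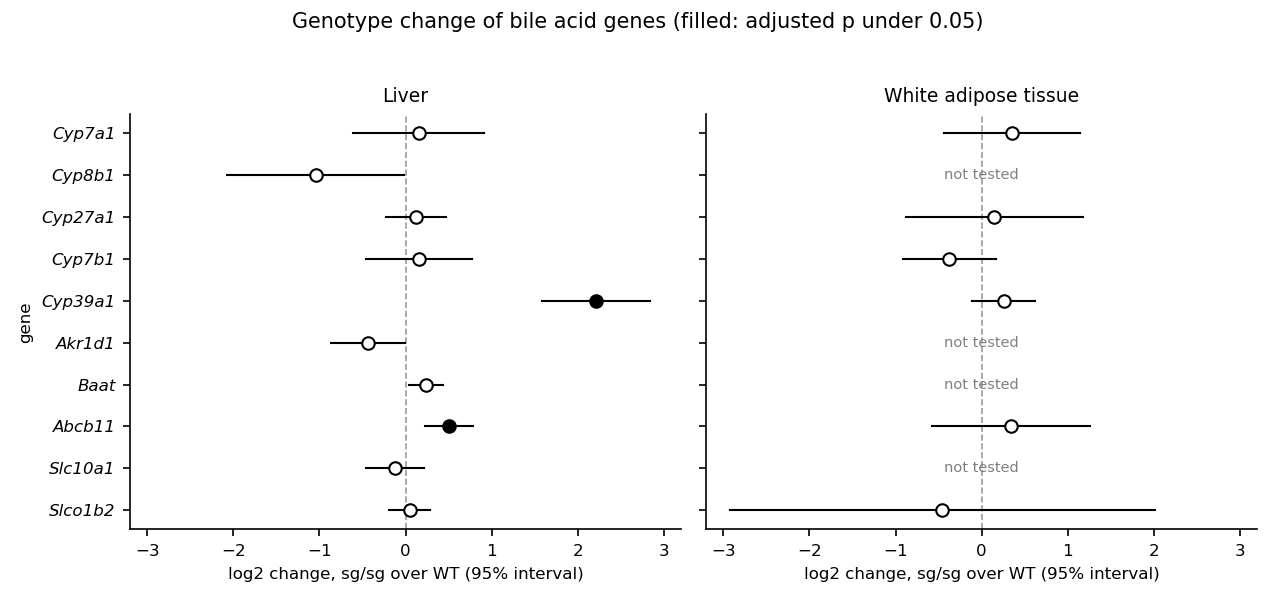
Log2 change, sg/sg over WT, of each gene (points) with its 95% interval (lines) in liver (left) and WAT (right); filled points passed at an adjusted p under 0.05, and genes under the filter in WAT are marked as not tested. In liver Cyp39a1 (2.21) and Abcb11 (0.50) passed, and in WAT none of the 6 tested genes did.

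Between livers of the same genotype, Abcb11 and Akr1d1 moved together. Over the 10 liver arrays, as deviations from the genotype means, Pearson's r was 0.614 (permutation within genotypes, 100000 resamples, two-sided, p = 0.00104, adjusted p = 0.0468) and Spearman's rho 0.782 (p = 0.00063, adjusted p = 0.0284). Without the 2 arrays farthest from the median of Abcb11, r was 0.792. It was the one pair of 45 that passed after Benjamini-Hochberg adjustment, 4 pairs had an unadjusted p under 0.05, and r ran from -0.647 for Cyp7a1 with Cyp27a1 to 0.822 for Baat with Slco1b2 (adjusted p = 0.29). The liver slides held 2 to 4 arrays, fewer than the 6 asked for a correlation within 1 slide. With slide means removed as well as genotype means, an alternative chosen after seeing the data, r for Abcb11 with Akr1d1 over the 10 arrays was 0.613 (exact permutation within slide and genotype, 288 orders, two-sided, p = 0.00347, the smallest it can give). Arrays share the scaling, whose part in this was not tested.

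In WAT, 6 of the 10 genes passed the filter on dim probes (Abcb11, Cyp27a1, Cyp39a1, Cyp7a1, Cyp7b1 and Slco1b2), and none of the 6 differed between genotypes at an adjusted p under 0.05, where 23.8% of the 22353 genes tested passed. The genotypes overlapped for all 6, and did not overlap for 21.8% of all genes. None had an unadjusted p under 0.05 (limma), as 36.6% of all genes had. Other cell types' markers differed in WAT: macrophage markers were lower in 6 of 12 and higher in none (median -0.56), and their summed level was 160 to 216 in sg/sg WAT against 199 to 280 in WT WAT. Adipocyte markers were higher in 4 of 10 and lower in 1 (median 0.49, summed level 1190 to 1640 in sg/sg WAT against 693 to 1130 in WT WAT). Genes of the cholangiocyte list were higher in 4 of 12 and lower in 1 (median 1.03, 7.99 to 11.8 against 4.66 to 25.8), and whether such cells were present in WAT was not tested. The part of these markers in the WAT values given here was not tested. The filter asked for 4 of the 10 WAT arrays, and Cyp7a1, above background on 6, was measured on the fewest.

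Cyp39a1 in WAT, by probe A_52_P557265, read -1.37, -1.51, -1.08, -1.94 and -1.36 in sg/sg mice and -1.96, -1.80, -1.56, -1.79 and -1.44 in WT mice. Most sg/sg arrays lay in the upper part of the range, while sg/sg replicate 4 was next to the lowest. The difference was 0.26 (SE 0.16, 95% interval -0.11 to 0.63, limma, adjusted p = 0.293), and within the 3 WAT slides, each of which held both genotypes, it was 0.04, 0.42 and 0.22. The genotype effect on Cyp39a1 was larger in liver than in WAT by 1.95 (SE 0.35, 95% interval 1.23 to 2.68, interaction term over all 20 arrays, limma, adjusted p = 0.000867). It was the single member of 10 with an interaction that passed, against 17.4% of the 22564 genes tested (3700 of them probes with no gene name). For 5 of the 10 members the probe had passed the filter through liver alone. Their genotype effects in WAT rest on values mostly not well above background. The Cyp39a1 interaction passed in each of the 30 alternative fits, none of which had slide as a fixed block or stayed within a slide. Without WT WAT replicate 3 and sg/sg WAT replicate 5 the value was 1.94.

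Cyp27a1, which is expressed in many tissues beside liver, read 0.39, 0.30, 0.06, -2.20 and 0.51 in sg/sg WAT and -0.34, -0.44, -0.16, -0.61 and -0.14 in WT WAT. Apart from sg/sg replicate 4, every sg/sg array lay above every WT array. With all arrays the difference was 0.15 (SE 0.46, limma, adjusted p = 0.856), and without that array it was 0.65 (SE 0.13, adjusted p = 0.00641). Leaving that array out also raised the count over all genes, from 5325 of 22353 that passed to 6963 of 22316. Within the 3 slides the difference was -0.70 (the slide with that array), 0.92 and 0.42. The same array had the lowest 75th percentile of the WAT arrays, at 1352 intensity units, and its part in the result was not tested beyond leaving it out.

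Cyp7b1 read -2.45, -2.14, -1.72, -2.46 and -1.71 in sg/sg WAT and -2.13, -0.997, -1.62, -1.83 and -2.03 in WT WAT. The groups overlapped, with WT replicate 2 highest, and the difference was -0.37 (95% interval -0.91 to 0.16, limma, adjusted p = 0.298). Cyp7a1, by probe A_51_P290981, was above background on 3 of 5 sg/sg and 3 of 5 WT arrays, with a difference of 0.35 (95% interval -0.44 to 1.14, adjusted p = 0.523). Probe A_52_P84027, the brighter in liver, went the other way, with means of -9.59 in sg/sg WAT and -9.31 in WT WAT. It was well above background on 1 of 5 arrays of each genotype. On WT WAT replicate 3, with raised hepatocyte markers, it read -7.22, while A_51_P290981 read -8.71 and was not above background. Whether A_51_P290981 reads Cyp7a1 in WAT was not tested.

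The transporters were highest in WAT on the 2 arrays with raised hepatocyte markers. Slco1b2 read -5.98, -7.81, -5.81, -4.63 and -2.22 in sg/sg WAT and -5.40, -6.78, -1.77, -4.68 and -5.53 in WT WAT. Each genotype had 1 such array, and the other arrays of the genotypes overlapped. Abcb11 read -4.56, -4.85, -4.69, -4.76 and -3.29 in sg/sg WAT and -4.77, -5.29, -3.41, -5.32 and -5.09 in WT WAT, with the same 2 arrays on top. The differences were -0.46 for Slco1b2 (95% interval -2.93 to 2.01, limma, adjusted p = 0.808) and 0.34 for Abcb11 (95% interval -0.57 to 1.26, adjusted p = 0.595), and without those 2 arrays they were -0.46 (adjusted p = 0.694) and 0.40 (adjusted p = 0.109). Slc10a1 was well above background in WAT on those 2 arrays alone, at -6.24 in sg/sg replicate 5 and -5.12 in WT replicate 3. Baat, by its brighter probe, was well above background on them and on sg/sg replicate 1. Their hepatocyte marker levels are given above, and the part of other tissue in these values was not tested.

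**Figure D4:**
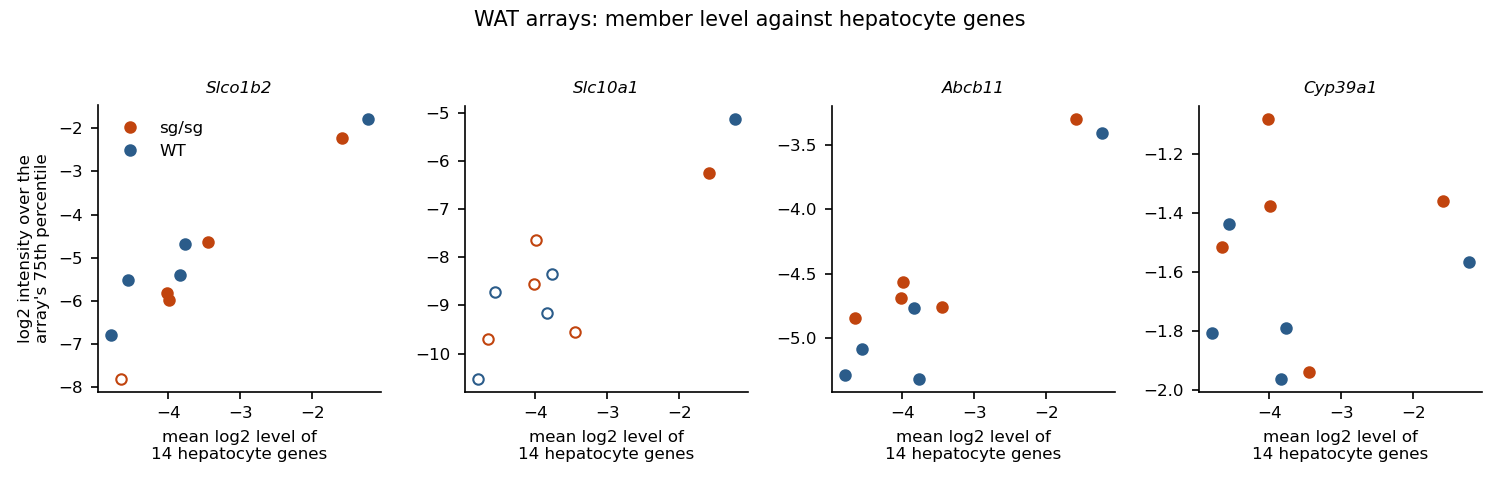
Log2 intensity over the array's 75th percentile of Slco1b2, Slc10a1, Abcb11 and Cyp39a1 (vertical axis, own scale per panel) against the mean log2 level of 14 hepatocyte genes (horizontal axis) on the 10 WAT arrays; open points were not well above background. The 2 arrays at the right are sg/sg replicate 5 (-1.59) and WT replicate 3 (-1.22), which are highest for the 3 transporters and not for Cyp39a1.

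**Figure D5:**
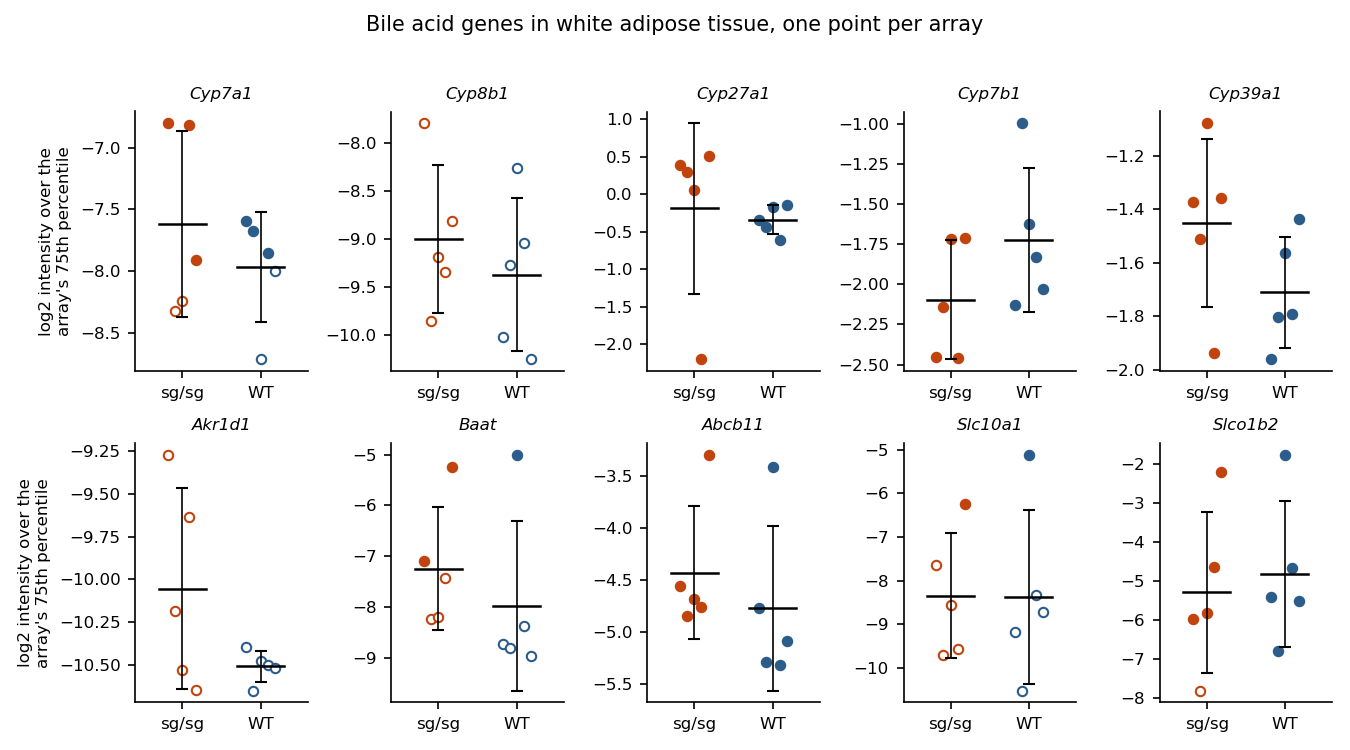
Log2 intensity over the array's 75th percentile (vertical axis, own scale per panel) of each gene on the WAT arrays, sg/sg left and WT right, with open points for values not well above background. Horizontal lines are group means and whiskers 1 SD (n = 5); Cyp8b1 and Akr1d1 were not well above background on any WAT array.

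For 5 genes the probe tested had passed the filter in both tissues (Cyp39a1, Cyp27a1, Cyp7b1, Abcb11 and Slco1b2). All 5 were higher in WT liver than in WT WAT at an adjusted p under 0.05 (limma), where 75.7% of genes passed in either direction and 42% passed as higher in liver. The difference was 3.11 for Cyp39a1 (8.66-fold), 4.25 for Cyp27a1 (19.1-fold), 8.48 for Cyp7b1 (357-fold) and 11.99 for Abcb11 (4080-fold), all from probes well above background on every array. The WT WAT mean of Slco1b2 includes replicate 3, the array with raised hepatocyte markers, at -1.77 against -6.78 to -4.68 on the other 4; the difference was 12.83 with it and 13.59 without it. The probes of Akr1d1, Baat, Cyp7a1, Cyp8b1 and Slc10a1 had passed the filter through liver alone, so that a higher level there was set by that filter and is no result. Cyp8b1 and Akr1d1 were not well above background on any WT WAT array, so that only bounds can be given. Set against the lowest signals well above background (mean -8.20), they were at least 1740-fold for Cyp8b1 and at least 302-fold for Akr1d1. That limit is lenient: Cyp7a1 probe A_51_P290981, at -8.00 on WT WAT replicate 5, was not well above background. Cyp7a1 (by its liver probe), Baat and Slc10a1 were well above background on 1 of 5 WT WAT arrays each, replicate 3 with the raised hepatocyte markers. Tissue and slide cannot be told apart, since no slide held both tissues, and each array was scaled to its own 75th percentile.

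Beside the members, other genes of the pathway were counted in liver. Of 11 further bile acid enzymes tested, Cyp2c70, which makes muricholic acids in mice, was higher (0.77, limma, adjusted p = 0.0498), and Abcd3, the peroxisomal importer of bile acid intermediates, was lower (-0.43, adjusted p = 0.0225). Of 13 other bile acid and bile lipid transporters tested, Atp8b1, a canalicular flippase, was higher (0.51), and Abcc3 (-1.34) and Abcg2 (-0.94), which export organic anions and conjugates, were lower. Of 14 regulators tested, Fgfr4, the hepatic receptor of the ileal signal that represses Cyp7a1, was higher (0.61, adjusted p = 0.00468), as was Nr1h3, the oxysterol receptor LXRα (0.36). Ppara (-0.65) and Nr1i2 (-0.54), receptors of fatty acids and of xenobiotics and bile acids, were lower. Nr1h4 and Nr0b2, the bile acid receptor and the repressor it induces, named for their role after their values were seen, had differences of -0.28 and -0.38 and did not pass (adjusted p = 0.141 and 0.329). The shares that passed, 2 of 11, 3 of 13 and 4 of 14, stand beside 16.3% of all genes.

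Cyp39a1 is more strongly expressed in female than in male mouse liver and Cyp7b1 in male liver, so both sex-biased lists were counted. Of 8 female-biased genes tested, Cyp39a1 was higher and Acot3, a peroxisomal thioesterase, was lower (-3.48), and the median was -0.99. Of 11 male-biased genes, Serpina1e was higher (0.51), none was lower and the median was 0.07; Keg1 had the next smallest p and did not pass (-0.46, adjusted p = 0.106). Pericentral hepatocyte markers were higher in 1 of 12 and lower in none, with a median of 0.16. Periportal markers were lower in 1 of 12 and higher in none, with a median of 0.22. Both medians stand beside 0.05 over all genes. These shares of 2 of 8, 1 of 11, 1 of 12 and 1 of 12 stand beside 16.3% of all genes in liver. The 8 include Cyp39a1 and the 11 include Cyp7b1, the members for which the sex-biased lists were counted. In WAT, 3 of 12 other bile acid enzymes were higher and 1 was lower. Hsd3b7 (0.57) and Scp2 (0.57), a ring-modifying dehydrogenase and a peroxisomal thiolase, had the smallest p, and the lower one was Cyp2c70 (-1.32, limma, adjusted p = 0.01), which was higher in sg/sg liver. Of 14 transporters 3 were higher, Abcg5 (1.63) and Slco1a4 (1.24) with the smallest p, and 1 was lower, Atp8b1 (-0.60, adjusted p = 0.0487), also higher in sg/sg liver. Of 15 regulators 3 were higher, Klb (0.88) and Ppara (0.73) with the smallest p, and none was lower. These counts stand beside 23.8% of all genes, and beside the shifts of macrophage and adipocyte markers in WAT given above. Cyp2c70 and Atp8b1 are named in WAT after their values were seen. The genotype effect changed sign between the tissues for both, and for Ppara, which was lower in sg/sg liver and higher in sg/sg WAT. The effect in liver minus that in WAT was 2.08 for Cyp2c70, 1.11 for Atp8b1 and -1.38 for Ppara. Each passed (interaction, limma, adjusted p = 0.00135, 0.00376 and 9.97e-05), beside 17.4% of all genes.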

How the data were processed

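Total RNA was labelled with Cy3 on 1-colour arrays. The deposited intensity of each spot was made by the authors with Agilent Feature Extraction 9.5, per the submitters' processing notes, which per the file headers subtracted background and did not scale between arrays; the deposited value table is identical. Here, log2 intensity minus each array's 75th percentile was computed, without control spots and spots the program marked as outliers. A probe was kept when well above background on at least 4 of 10 arrays of a tissue, and a gene was its brightest probe. Genotypes were compared per tissue with limma 3.58.1 (R 4.3.3; lmFit, eBayes, two-sided, Benjamini-Hochberg over all genes), and the interaction and tissue comparison came from all 20 arrays; fits were tested on simulated data. A lower bound on a fold sets the bright mean against, per array, the lowest signal well above background or the dim probe's signal if higher. Symbols came from RefSeq (GRCm38.p6) for 22951 probes and from the files for 11758; 6465 had none and were each tested as a gene. The number of arrays limits the precision. The genes and lists were chosen with earlier results of these data known. Named are all 10 genes, Rora and, of the other enzyme, transporter, regulator and sex-biased lists, the genes with the smallest p: in liver up to 4 that passed (2 where fewer passed), in WAT, without the sex-biased lists, up to 2. Genes named outside this rule are marked in the text. Background correction, scaling, filter, probe choice, slide and replicate blocks and left-out arrays were varied.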

Additional observations from a re-analysis of the deposited data

Results flagged for a closer look

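The difference in the Cyp39a1 genotype effect, larger in liver than in WAT by 1.95 (limma interaction, adjusted p = 0.000867), is listed because the effect differed between the tissues by a test of that difference. All 5 sg/sg livers were above all WT livers.

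Single arrays far from the rest of their group were found in 4 of the 40 groups of 5 examined (each member probe in each group that passed the filter), and chance alone puts about 1 in 20 groups past the limit used. Cyp27a1 in sg/sg WAT replicate 4 was at -2.20, with the next array of the group at 0.06. Cyp39a1, by probe A_51_P515446, was at -2.80 on the same array, with the next at -1.73. Abcb11 was at -3.29 in sg/sg WAT replicate 5, with the next at -4.56, and at -3.41 in WT WAT replicate 3, with the next at -4.77. The first array is the WAT array with the lowest 75th percentile, and the other 2 are those with raised hepatocyte markers; the part of either in these values was not tested.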

How the results depend on the processing

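In liver, where 2 members passed, 1 (Cyp39a1) passed with median scaling, with no filter on dim probes and with the replicate block, 0 passed with slide as a fixed block or within slide 2, and 1 to 2 passed with single arrays left out. Of the member probes, 3 passed, and 0 did with slide as a fixed block or within slide 2. In WAT, 0 members passed, 0 to 1 with single arrays left out (Cyp27a1 without sg/sg replicate 4), and 0 to 2 probes instead of 0. The interaction passed for 1 member, for 3 with the replicate block (Cyp39a1, Akr1d1 and Cyp8b1), for 2 without both WAT arrays with raised hepatocyte markers, an alternative chosen after seeing the data, and for 1 to 2 with single arrays left out. Akr1d1 and Cyp8b1 were not above background on any WAT array. In the tissue comparison 10 members passed, and 4 of 4 when every array had to be well above background, which removes the other 6; 5 of the 10 had passed the filter through liver alone. No result that passed changed sign. Deviations from the group means correlated from -0.162 to 0.187 between arrays of equal replicate number, at most 1 of 5 over 0.1 in a pair of groups. Such values cannot tell whether liver and WAT arrays came from the same mouse. The main interaction and tissue fits took the 20 arrays as independent. With the replicate block Abcb11 no longer passed in liver (limma, adjusted p = 0.0501). In fits of 1 tissue that block joins the sg/sg and WT arrays of equal replicate number, which are different mice. In the interaction it joins the liver and WAT arrays of equal genotype and replicate number. The labels give neither pairing. Over all genes, 2825 passed in liver, 982 with no filter, 1430 with the replicate block, 1745 with slide as a random block, 2 as a fixed block, 0 within slide 2, and 960 to 3140 with single arrays left out. In WAT 5325 passed, 1435 with normexp background, which moved the median change of all genes to 0.41, against 0.09, 3431 with the replicate block, 3515 without both arrays, and 0 within single slides (WAT). With single WAT arrays left out, from 3923 genes (without WT replicate 1) to 6963 genes (without sg/sg replicate 4) passed in WAT. The interaction passed for 3930 genes and for 1884 with normexp background.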
